A study of Mus musculus with 16 samples.

Results

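The epicardium is the mesothelial sheet that covers the heart, and 9 genes used as its markers were followed here across *Chd7* mutant and control hearts: *Wt1*, *Tcf21*, *Bnc1*, *Upk1b*, *Upk3b*, *Msln*, *Lrrn4*, *Gpm6a* and *Krt19*. They were chosen by name, with earlier results of these data already known. Each had 1 probe set that names it alone, so none was lost to a filter. They are 9 of 19937 genes that had a probe set to themselves. Hearts were taken from C57BL/6 mouse embryos and measured 1 heart per array on Affymetrix Mouse Gene 1.0 ST arrays. There were 4 groups of 4 hearts: Chd7fl/fl;Mesp1-Cre (mutant) and control at E13.5, and the same 2 genotypes at E11.5. In the mutant, both floxed copies of *Chd7*, a chromatin remodelling ATPase, are cut by a Cre recombinase driven from *Mesp1*. This Cre acts in the early anterior mesoderm and so in most of the heart. Whether *Chd7* was cut in the epicardium itself is not shown by these whole-heart arrays. The labels call the controls WT and the methods give them as carrying Mesp1-Cre with unfloxed *Chd7*, but the cross named in the labels cannot give that genotype, so the controls may carry floxed alleles or lack Cre.

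The epicardium grows out of the proepicardium, a cluster of mesothelial cells at the venous pole, and spreads over the myocardium. Some of its cells then leave the sheet by an epithelial-to-mesenchymal transition and become fibroblasts and the mural cells of coronary vessels. *Wt1*, *Tcf21* and *Bnc1* encode transcription factors of this layer. *Upk1b* and *Upk3b* (uroplakins), *Msln* (mesothelin), *Lrrn4* and *Gpm6a* encode proteins of the cell surface, and *Krt19* encodes a keratin of the epithelial cytoskeleton. Most of these genes are also on in the mesothelium of other organs, and a whole heart averages all its tissues, so in these data fewer epicardial cells and less RNA per epicardial cell cannot be told apart.

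The targeted gene followed the labels: *Chd7* was between 8.88 and 9.07 in mutant hearts and between 9.83 and 10.30 in control hearts at E13.5, and between 9.16 and 9.73 in mutant hearts and between 10.64 and 10.89 in control hearts at E11.5. All levels are log2 values after the robust multi-array average (RMA), so a difference of 1 is a doubling, and the level of 1 gene was not set against that of another because probes differ in brightness. The mean of 8 cardiomyocyte genes lay between 12.67 and 13.05 in all 16 hearts. The SD of the values within an array was between 2.38 and 2.42 at E13.5 and between 2.18 and 2.26 at E11.5, and whether the stages were normalised together is not given in the sources used here. Mutant E11.5 replicates 3 and 4 and control E13.5 replicate 1 were set apart, to be left out together in an alternative fit. Over all genes, these 3 hearts differed from the rest of their groups with an SD of 0.36, 0.34 and 0.26 in that order, which was the widest or near the widest of their stage. Other hearts came close, with 0.34 for mutant E11.5 replicate 1 and control E11.5 replicate 2 and 0.26 for mutant E13.5 replicate 2. A gene was called when limma's adjusted p over all probe sets was under 0.05 and the log2 FC was over 0.5 in size. The number of arrays limits the precision.

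For a look at the regulatory sequence of these genes, the 250 bases upstream of a transcript start were taken from RefSeq (mouse, GRCm38.p6), which held 6 such windows for 5 of the 9 genes (*Tcf21*, *Upk3b*, *Lrrn4*, *Gpm6a* with 2, and *Bnc1*). Those of *Upk3b*, *Lrrn4* and *Bnc1* are shown as 3 of the genes that moved closely together from heart to heart. *Gpm6a*, whose windows are not shown, did so too. They run 5′ to 3′ on the gene's own strand, and capitals mark matches to GGAATG, the motif bound by TEAD factors, or to GCGNGGGNG, a motif of WT1 and EGR type, searched on both strands. The *Upk3b* window lies at chr5:136038246-136038495 on the plus strand, the *Lrrn4* window at chr2:132880863-132881112 on the minus strand and the *Bnc1* window at chr7:81992300-81992549 on the minus strand. The *Lrrn4* window belongs to a start inside the span recorded for the gene.
Upk3b: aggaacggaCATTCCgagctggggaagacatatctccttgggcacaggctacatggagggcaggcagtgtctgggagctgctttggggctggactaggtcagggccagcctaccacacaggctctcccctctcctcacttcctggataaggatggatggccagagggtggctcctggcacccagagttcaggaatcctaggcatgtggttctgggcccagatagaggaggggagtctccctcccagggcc
Lrrn4: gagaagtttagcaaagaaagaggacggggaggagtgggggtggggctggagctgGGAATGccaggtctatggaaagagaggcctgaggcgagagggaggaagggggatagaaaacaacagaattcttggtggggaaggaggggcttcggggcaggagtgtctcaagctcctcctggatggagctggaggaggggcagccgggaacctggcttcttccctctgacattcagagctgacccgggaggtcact
Bnc1: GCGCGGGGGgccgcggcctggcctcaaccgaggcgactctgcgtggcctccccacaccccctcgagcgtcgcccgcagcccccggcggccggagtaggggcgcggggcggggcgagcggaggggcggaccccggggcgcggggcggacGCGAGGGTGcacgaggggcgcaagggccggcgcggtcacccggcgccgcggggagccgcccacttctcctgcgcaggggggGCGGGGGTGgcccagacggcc
The TEAD motif occurred in 3 of the 6 windows, once each in *Upk3b* (on the reverse strand, as CATTCC), *Lrrn4* and the first window of *Gpm6a*, and 12.6% of the 32851 mouse promoter windows of this length hold it. The WT1 type motif occurred in the *Bnc1* window alone, with 3 matches in a sequence of 83.6% G and C, and 10.5% of all windows hold it. A T-box motif, GGTGTGA, was in none of the 6 and is in 3.3% of all windows. These matches describe the letters and are not evidence of binding.

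Mutant hearts at E13.5 did not differ from controls at the threshold for any of the 9 genes, although all 9 means were higher in the mutant. Among the transcription factors, *Wt1*, needed for the transition to mesenchyme, was 9.93, 9.71, 10.59 and 9.93 in mutant hearts 1 to 4, against 9.89, 9.87, 9.73 and 9.45 in control hearts 1, 2, 4 and 5. *Tcf21*, which epicardium-derived fibroblasts need, was 9.80, 9.61, 10.22 and 9.37 in mutant hearts and 9.35, 9.62, 9.62 and 9.64 in control hearts. *Bnc1*, a zinc finger factor, was 9.76, 9.17, 10.42 and 9.35 in mutant hearts and 9.04, 9.12, 9.24 and 8.85 in control hearts. In all 3 genes mutant heart 3 was the highest of the stage and the groups overlapped. The log2 FC was 0.30 for *Wt1* (95% CI -0.09 to 0.70), 0.19 for *Tcf21* (-0.17 to 0.55) and 0.61 for *Bnc1* (0.04 to 1.19), and limma's adjusted p was 1.00 for each.

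**Figure D1:**
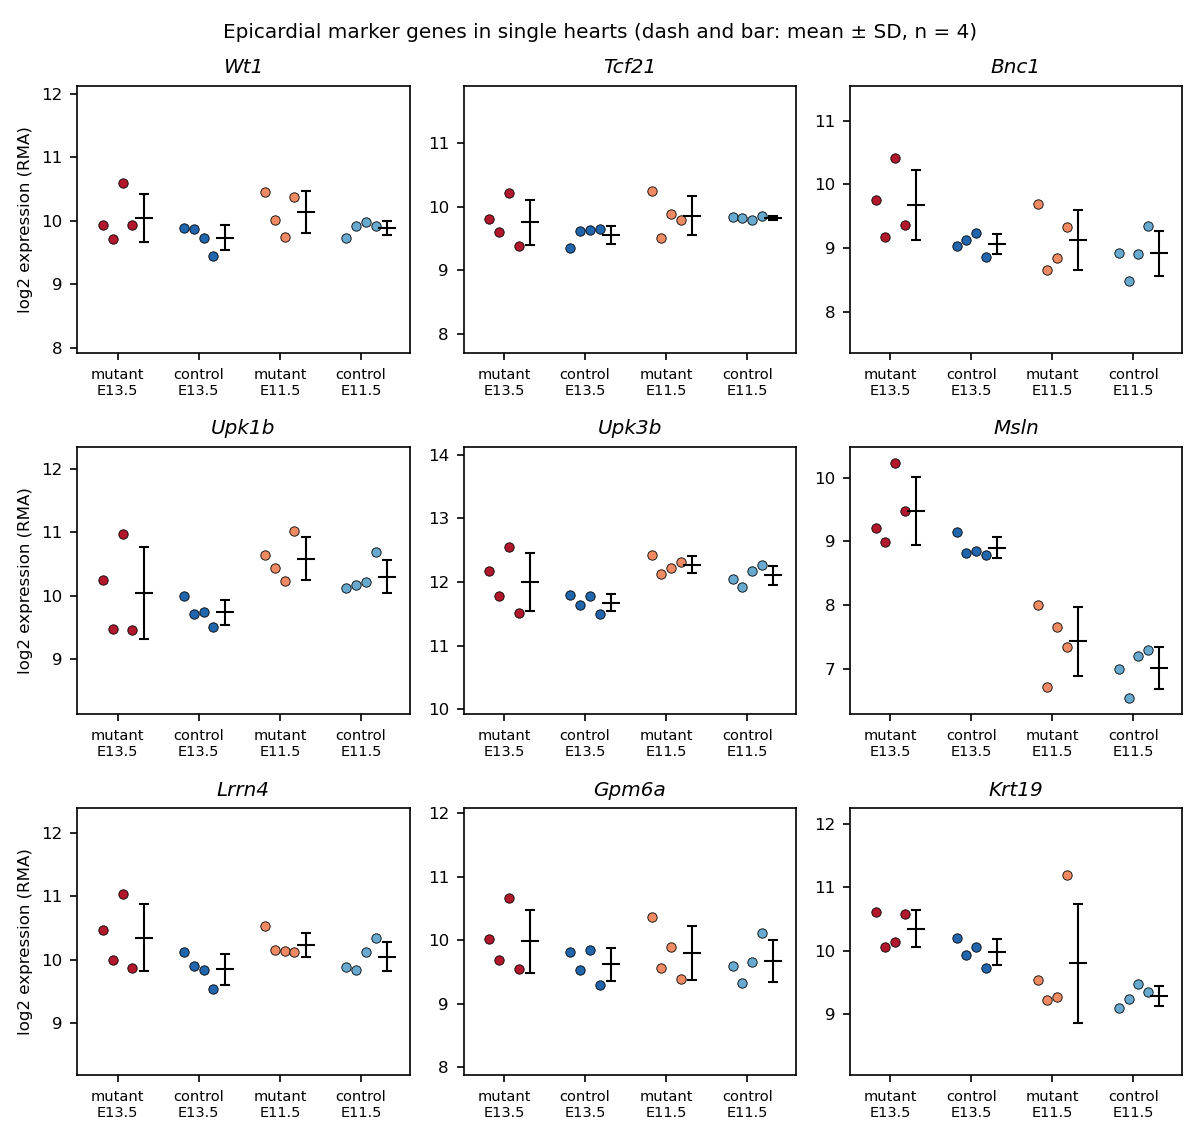
Levels of the 9 epicardial marker genes (log2, RMA) in 16 single hearts, by genotype and stage, with every panel spanning the same number of log2 units. Points are hearts in the order of their replicate numbers, and the dash and bar give the mean and SD of 4 hearts. *Msln* is the gene whose stages stand fully apart in both genotypes, and mutant E13.5 heart 3 is the highest of its stage in 8 of 9 panels.

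The surface proteins had the same heart at the top. *Upk1b* was 10.24, 9.48, 10.98 and 9.46 in mutant hearts at E13.5 and 9.99, 9.71, 9.75 and 9.50 in control hearts. *Upk3b* was 12.18, 11.79, 12.55 and 11.51 in mutant hearts and 11.79, 11.63, 11.78 and 11.501 in control hearts. Uroplakins are best known from the plaques of the bladder lining, and these 2 members also mark mesothelium. *Msln*, a glycolipid-anchored protein of mesothelial cells, was 9.21, 8.995, 10.23 and 9.48 in mutant hearts and 9.14, 8.82, 8.85 and 8.79 in control hearts, so that only mutant heart 2 lay inside the control range. *Lrrn4*, a leucine-rich repeat membrane protein, was 10.46, 10.001, 11.04 and 9.88 in mutant hearts and 10.13, 9.90, 9.84 and 9.54 in control hearts. *Gpm6a*, a tetraspan membrane glycoprotein first known from neurons, was 10.03, 9.69, 10.67 and 9.55 in mutant hearts and 9.81, 9.53, 9.84 and 9.30 in control hearts. The spread was wider among mutant than among control hearts in all 5 genes: the SD was between 0.45 and 0.72 in mutant hearts and between 0.14 and 0.26 in control hearts. The log2 FC was 0.30 for *Upk1b*, 0.33 for *Upk3b*, 0.58 for *Msln* (95% CI -0.01 to 1.16), 0.49 for *Lrrn4* (0.03 to 0.95) and 0.36 for *Gpm6a*, with an adjusted p of 1.00 in limma for each.

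*Krt19* was 10.61, 10.06, 10.13 and 10.57 in mutant hearts at E13.5 and 10.20, 9.93, 10.06 and 9.72 in control hearts, with a log2 FC of 0.36 (95% CI -0.33 to 1.06, limma's adjusted p = 1.00). Here mutant heart 3 was not the highest, and the 2 high mutant hearts were 1 and 4.

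Counted over the 9 genes at E13.5, 0 were called, against a background of 0.0451% of all genes called in either direction (9 of 19937). *Lrrn4* and *Bnc1* had an unadjusted p under 0.05, of 0.0372 and 0.0369 in limma, and 1.97% of all genes were higher in the mutant at that level. The median log2 FC of the 9 genes was 0.36 and that of all genes was 0.00, with 51.4% of all genes above 0. All of them but *Krt19* moved together between hearts, so they are not 9 independent measurements of this direction. Without mutant heart 3, the log2 FC was 0.12 for *Wt1*, 0.04 for *Tcf21*, -0.01 for *Upk1b*, 0.15 for *Upk3b*, 0.33 for *Msln*, 0.26 for *Lrrn4*, 0.13 for *Gpm6a* and 0.37 for *Bnc1*, each smaller than with it by over 1.5 times, and 0.44 for *Krt19*. With any 1 heart left out, none of the 9 was called at this stage.

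**Figure D2:**
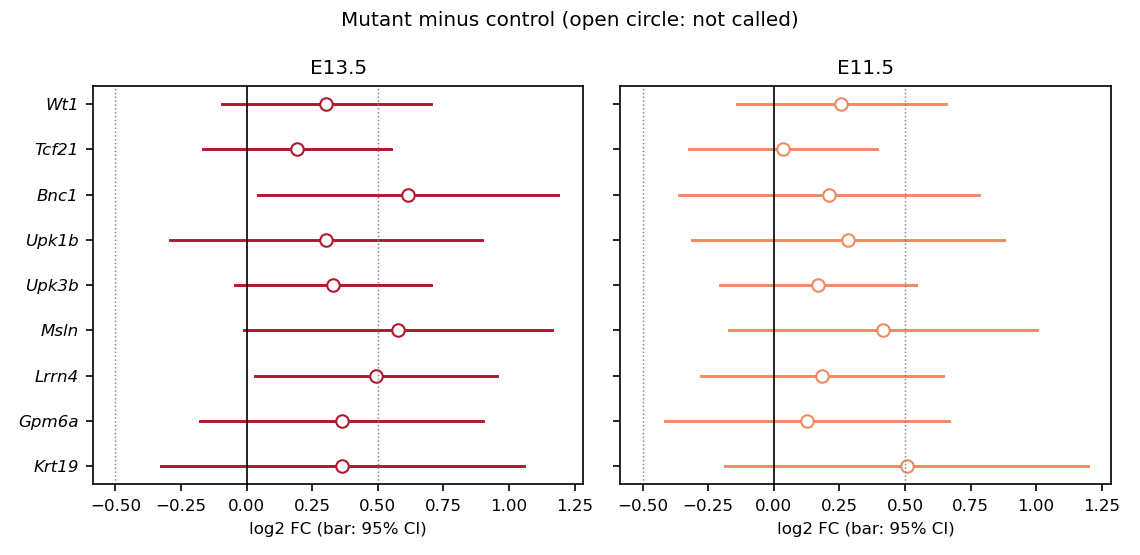
The log2 FC (mutant minus control) of the 9 genes at E13.5 and E11.5 on the horizontal axes, from limma over 16 arrays. Circles are the estimates and bars the 95% CI. All 18 circles lie to the right of 0 and all are open, since no gene was called, and the bars of *Bnc1* and *Lrrn4* at E13.5 alone stay clear of 0.

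At E11.5, 2 days earlier in development, the genes again had higher means in mutant hearts and again none was called. *Wt1* was 10.45, 10.01, 9.74 and 10.37 in mutant hearts 1 to 4 and 9.72, 9.92, 9.98 and 9.92 in control hearts 1 to 4. *Tcf21* was 10.25, 9.51, 9.88 and 9.78 in mutant hearts and 9.83, 9.81, 9.79 and 9.85 in control hearts, a tight range that mutant heart 1 exceeded and mutant heart 2 undershot. *Bnc1* was 9.69, 8.65, 8.84 and 9.33 in mutant hearts and 8.92, 8.48, 8.91 and 9.35 in control hearts. For *Wt1* 3 mutant hearts lay above every control heart and the other lay inside the control range, and for *Bnc1* only mutant heart 1 lay above it, with the other 3 inside. The log2 FC was 0.26 for *Wt1*, 0.03 for *Tcf21* and 0.21 for *Bnc1*.

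Of the surface proteins at E11.5, *Upk1b* was 10.65, 10.43, 10.23 and 11.02 in mutant hearts and 10.13, 10.17, 10.22 and 10.68 in control hearts. *Upk3b* was 12.43, 12.12, 12.23 and 12.32 in mutant hearts and 12.05, 11.92, 12.18 and 12.27 in control hearts. *Msln* was 8.003, 6.72, 7.65 and 7.34 in mutant hearts and 6.99, 6.54, 7.20 and 7.29 in control hearts. For *Upk1b* the 3 lower control hearts lay below every mutant heart, and for *Msln* 3 of 4 mutant hearts lay above every control heart. *Lrrn4* was 10.53, 10.15, 10.13 and 10.13 in mutant hearts and 9.89, 9.84, 10.13 and 10.34 in control hearts. *Gpm6a* was 10.37, 9.56, 9.89 and 9.39 in mutant hearts and 9.60, 9.34, 9.65 and 10.12 in control hearts. The log2 FC was 0.28 for *Upk1b*, 0.17 for *Upk3b*, 0.42 for *Msln*, 0.18 for *Lrrn4* and 0.13 for *Gpm6a*. Most of these values depended on single hearts. Without mutant heart 1 the log2 FC was -0.06 for *Gpm6a* and -0.10 for *Tcf21*, and it was 0.02 for *Bnc1*, 0.23 for *Msln*, 0.09 for *Lrrn4* and 0.15 for *Wt1*. Without mutant heart 4 it was 0.14 for *Upk1b*, and without control heart 2 it was 0.11 for *Upk3b*, 0.07 for *Bnc1*, 0.26 for *Msln*, 0.11 for *Lrrn4* and 0.01 for *Gpm6a*. Other hearts moved values upwards by over 1.5 times. The log2 FC was 0.65 for *Msln*, 0.37 for *Bnc1*, 0.21 for *Gpm6a* and 0.15 for *Tcf21* without mutant heart 2, 0.39 for *Wt1* without mutant heart 3, 0.26 for *Gpm6a* and 0.06 for *Tcf21* without mutant heart 4, and 0.36 for *Bnc1*, 0.28 for *Lrrn4* and 0.27 for *Gpm6a* without control heart 4.

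*Krt19* had the widest spread of the 9 genes within a group, and 1 heart made it. It was 9.54, 9.22, 9.26 and 11.18 in mutant hearts at E11.5 and 9.10, 9.24, 9.48 and 9.35 in control hearts. Its log2 FC was 0.51 with all hearts (95% CI -0.18 to 1.20) and 0.05 without mutant heart 4. Another keratin, *Krt18*, was highest in the same heart, at 11.05 against 9.70 to 9.75 in the other mutant hearts. So was the cell adhesion gene *Vcam1*, named after its values were seen, at 10.64 against 9.86 to 9.94 in the others. The mean of 6 smooth muscle and pericyte genes was 10.96 in that heart and between 10.14 and 10.48 in the other mutant hearts. This was not particular to that list. The endothelial mean was also highest there (10.88, against 10.51 to 10.73 in the other mutant hearts). So was the mean of the attachment and transition genes described below (10.04, against 9.90 to 9.94). The cardiomyocyte mean was not (12.90, against 12.93 in mutant heart 2). The part of these in the *Krt19* level was not tested.

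Over the 9 genes at E11.5, 0 were called, against 0.251% of all genes in either direction (50 of 19937), and 0 had an unadjusted p under 0.05, a level at which 4.57% of all genes were higher in the mutant. Limma's adjusted p lay between 0.676 and 0.974. The median log2 FC of the 9 was 0.21 and that of all genes 0.00, with 50.9% of all genes above 0. In the mean of both stages, a comparison chosen after seeing the data, 0 of 9 were called and 3 had an unadjusted p under 0.05, against 4.53% of all genes in the higher direction: *Msln* (log2 FC 0.50, 95% CI 0.08 to 0.91), *Lrrn4* (0.34, 0.01 to 0.66) and *Bnc1* (0.41, 0.01 to 0.82). Their limma adjusted p was between 0.533 and 0.630.

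The mutant minus control change was not found to differ between the stages for any of the genes. The difference between the stages (E13.5 minus E11.5) ran from -0.14 for *Krt19* to 0.40 for *Bnc1* on the log2 scale, with limma's adjusted p at 1.00 throughout, and 0 of 9 had an unadjusted p under 0.05, a level that 3.96% of all genes reached in either direction. The 95% CI of *Bnc1* ran from -0.41 to 1.21 and that of *Krt19* from -1.12 to 0.83, so differences of this size in either direction are not excluded by these arrays.

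Between the stages, *Msln* was the one gene of the 9 that was called on the deposited values. Its mean was 9.48 ± 0.54 at E13.5 and 7.43 ± 0.55 at E11.5 in mutant hearts (SD, n = 4 each), and 8.90 ± 0.16 at E13.5 and 7.01 ± 0.34 at E11.5 in control hearts. Every E13.5 heart lay above every E11.5 heart of the same genotype. The fold change (E13.5 over E11.5) was 4.15 in mutant hearts (95% CI 2.76 to 6.24, log2 FC 2.05, limma's adjusted p = 4.57e-05) and 3.72 in control hearts (2.47 to 5.58, log2 FC 1.89, adjusted p = 9.10e-05). The log2 FC of *Msln* stayed between 1.80 and 2.25 in mutant hearts and between 1.74 and 1.99 in control hearts when any 1 heart was left out. So 1 of 9 genes was called in each genotype, both times higher, where 16.8% of all genes were called higher in mutant hearts and 16.5% in control hearts (29.6% and 28.8% in either direction).

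The other 8 genes had smaller and mixed differences between the stages, and 4 of them (*Upk1b*, *Upk3b*, *Tcf21* and *Wt1*) had values below 0 in both genotypes. *Upk1b* had a log2 FC of -0.54 in mutant hearts and -0.56 in control hearts (limma's adjusted p = 0.131 and 0.119), and *Upk3b* of -0.27 in mutant hearts and -0.43 in control hearts (adjusted p = 0.232 and 0.0615). *Tcf21* had a log2 FC of -0.26 in control hearts (limma's adjusted p = 0.226). *Krt19* had the opposite sign, at 0.54 in mutant hearts and 0.69 in control hearts (limma's adjusted p = 0.191 and 0.103). Its control hearts did not overlap between the stages either. How many of all genes separated in this way was not counted, but differences between the stages were common. In control hearts 10309 of 19937 genes had an unadjusted p under 0.05 in limma. *Bnc1* had 0.55 in mutant hearts and 0.14 in control hearts, *Gpm6a* 0.18 and -0.06, *Lrrn4* 0.11 and -0.20, *Tcf21* -0.10 in mutant hearts and *Wt1* -0.10 in mutant hearts and -0.15 in control hearts, none of them called.

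These stage calls depended on how the arrays were scaled and on single hearts. After quantile normalisation of all arrays together, *Upk1b* was called lower in both genotypes (log2 FC -0.78 in mutant hearts, limma's adjusted p = 0.0354, and -0.79 in control hearts, adjusted p = 0.0325) and *Upk3b* in control hearts (-0.65, adjusted p = 0.00854), while *Msln* kept its call. Without mutant E11.5 heart 4, *Krt19* was called higher in both genotypes (log2 FC 1.00 in mutant hearts, adjusted p = 0.000332, and 0.69 in control hearts, adjusted p = 0.00248), the control value itself being the same since no control heart was left out. Without mutant E13.5 heart 3, *Upk1b* was called lower in both genotypes (-0.86 in mutant hearts, adjusted p = 0.00845, and -0.56 in control hearts, adjusted p = 0.0417), and without mutant E11.5 heart 1 *Bnc1* was called higher in mutant hearts (0.73, adjusted p = 0.0422).

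**Figure D3:**
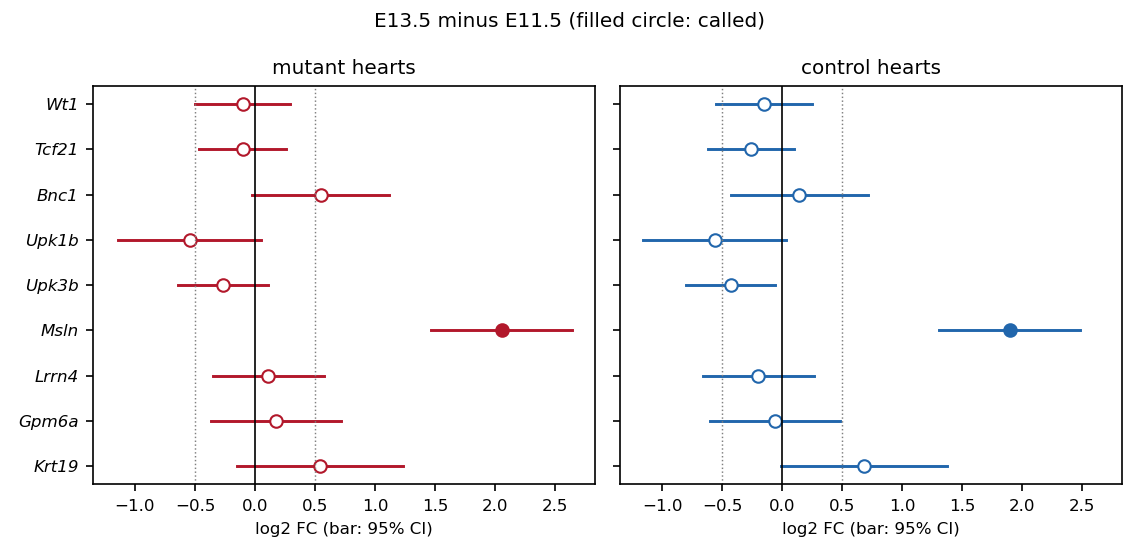
The log2 FC between the stages (E13.5 minus E11.5) of the 9 genes, in mutant and in control hearts, on the horizontal axes. Circles are limma estimates, filled where the gene was called, and bars the 95% CI. *Msln* stands at 2.05 in mutant and 1.89 in control hearts with filled circles, and the circles of the other 8 genes are open and lie between -0.56 and 0.69.

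Taking each heart's distance from the mean of its own group removes genotype and stage and leaves the variation between single hearts, in which 8 of the 9 genes moved as a block. Over 16 hearts, the 28 pairs among all genes but *Krt19* had a Pearson r between 0.52 and 0.94 with a median of 0.76 (Spearman's rho between 0.27 and 0.94). The share of other genes of at least median brightness (11812 of them) with r over 0.5 to any 1 of the 9 genes was between 6.76% and 11.6%. Leaving out the 2 hearts farthest from the median of the mean, mutant E13.5 replicates 2 and 3, the 28 values lay between 0.11 and 0.88 with a median of 0.65, and 21 of them were over 0.5. The lowest of these was that of *Tcf21* with *Upk1b*, which had been 0.57 with all hearts. Within the 8 hearts of E13.5 the values lay between 0.52 and 0.98, and within the 8 of E11.5 between 0.13 and 0.94. The 8 pairs of *Krt19* with the others had r between -0.24 and 0.35, and without the 2 hearts between -0.14 and 0.72. Arrays share their scaling and each heart its dissection, so these values are descriptions and carry no p.

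**Figure D4:**
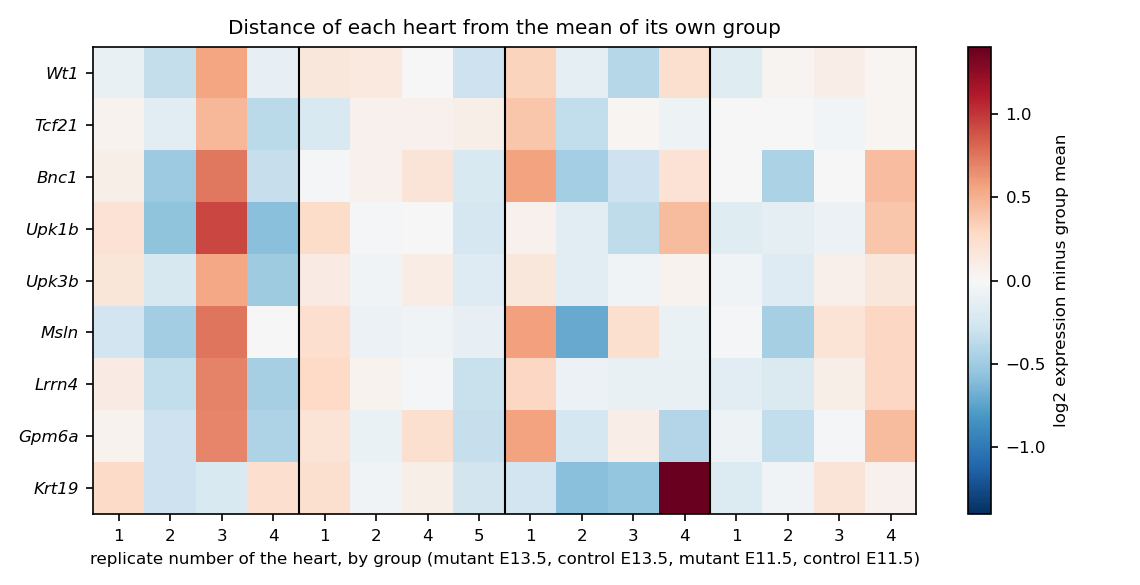
Distance of each heart from the mean of its own group (log2, colour) for the 9 genes in rows and 16 hearts in columns, grouped as mutant E13.5, control E13.5, mutant E11.5 and control E11.5. Mutant E13.5 heart 3 is above its group mean for every gene but *Krt19*, and the darkest square is *Krt19* in mutant E11.5 heart 4.

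The hearts at the ends of this block could be named. Mutant E13.5 heart 3 was the highest of its stage for 8 of 9 genes and mutant E11.5 heart 1 for 7 of 9, while control E13.5 heart 5 was the lowest of its stage for 7 of 9 and control E11.5 heart 2 for 5 of 9. In mutant E13.5 heart 3 the mean of the 9 genes was 10.76, and the lowest mutant heart of that stage had 9.83, against 9.59 to 9.93 in control hearts. The mean of the 8 cardiomyocyte genes was 12.96 in that heart and in mutant hearts 1 and 2, and 13.05 in mutant heart 4 (12.99 to 13.03 in control hearts). That of 8 endothelial genes was 10.67, the lowest of the mutant hearts (up to 10.93, against 10.88 to 10.9965 in control hearts). So was that of 6 smooth muscle and pericyte genes, at 9.995 (9.92 to 10.27 in control hearts). The mean of 5 erythroid genes was 12.94, the highest of the mutant hearts (from 12.32, against 12.06 to 13.27 in control hearts). For 12 mesenchyme and fibroblast genes it was 10.955 (10.80 to 10.98 in mutant and 10.88 to 10.96 in control hearts). Their part in the marker levels of that heart was not tested.

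By the rule of likeness to the mean of the 9 genes, the 10 genes that followed it most closely over the 16 hearts were *Efemp1* (r = 0.94), *Colec12* (0.93), *Aebp1* (0.93), *Sulf1* (0.93), *Sema3d* (0.92), *Tceal9* (0.92), *Golm1* (0.91), *Hexa* (0.90), *Myrf* (0.90) and *Stk26* (0.89). *Efemp1* (an extracellular matrix glycoprotein) and *Sema3d* (a secreted semaphorin) belong to the list of other epicardial genes used below. *Efemp1* was 9.54, 8.94, 10.19 and 8.90 in mutant hearts at E13.5 and 9.54, 8.86, 8.94 and 8.73 in control hearts. Without the 2 farthest hearts the 10 values lay between 0.78 and 0.91. Of the 14 genes of that epicardial list bright enough to be ranked, 9 had r over 0.5 (64.3%, median 0.67), and of all 11812 ranked genes 8.91% did (median 0.08).

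The list of other epicardial and mesothelial genes had 18 of 19 genes measured, and like the 9 markers it held no called gene in the genotype comparisons. At E13.5, 15 of 18 log2 FC values were above 0 with a median of 0.27, and 5 had an unadjusted p under 0.05, all higher in the mutant, where 51.4% of all genes were above 0 and 1.97% passed that level in this direction. At E11.5, 14 of 18 were above 0 with a median of 0.19, and again 5 passed that level, all higher, against 50.9% and 4.57% of all genes. These genes are not 18 independent measurements, since 9 of the 14 that were ranked followed the marker mean with r over 0.5. The list mean at E13.5 was 8.84 and 9.02 in mutant hearts 1 and 3. It was 8.34 and 8.37 in mutant hearts 2 and 4, inside the control range of 8.26 to 8.52. At E11.5 it was 8.48 to 8.70 in mutant and 8.25 to 8.44 in control hearts. *Aldh1a2*, the enzyme that makes retinoic acid in the epicardium, was 10.78, 9.92, 11.04 and 9.89 in mutant hearts at E13.5 and 9.73, 9.66, 9.96 and 9.50 in control hearts (log2 FC 0.69, limma's adjusted p = 0.919). At E11.5 it was 10.60, 10.03, 10.27 and 10.11 in mutant hearts and 9.34, 9.37, 9.53 and 9.70 in control hearts (log2 FC 0.77, limma's adjusted p = 0.235). The keratin gene *Krt7* had a log2 FC of 0.39 at E13.5 (adjusted p = 1.00) and 0.54 at E11.5 (adjusted p = 0.221). The keratin genes *Krt8* at E13.5 (0.63, adjusted p = 0.849) and *Krt18* (0.77, adjusted p = 0.313) and *Krt14* (0.44, adjusted p = 0.444) at E11.5, and the membrane mucin gene *Pdpn* at E13.5 (0.39, adjusted p = 1.00), were the others with the smallest p. The log2 FC of *Krt18* at E11.5 was 0.44 without mutant heart 4, and that of *Krt7* at E13.5 was 0.22 without mutant heart 3.

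**Figure D5:**
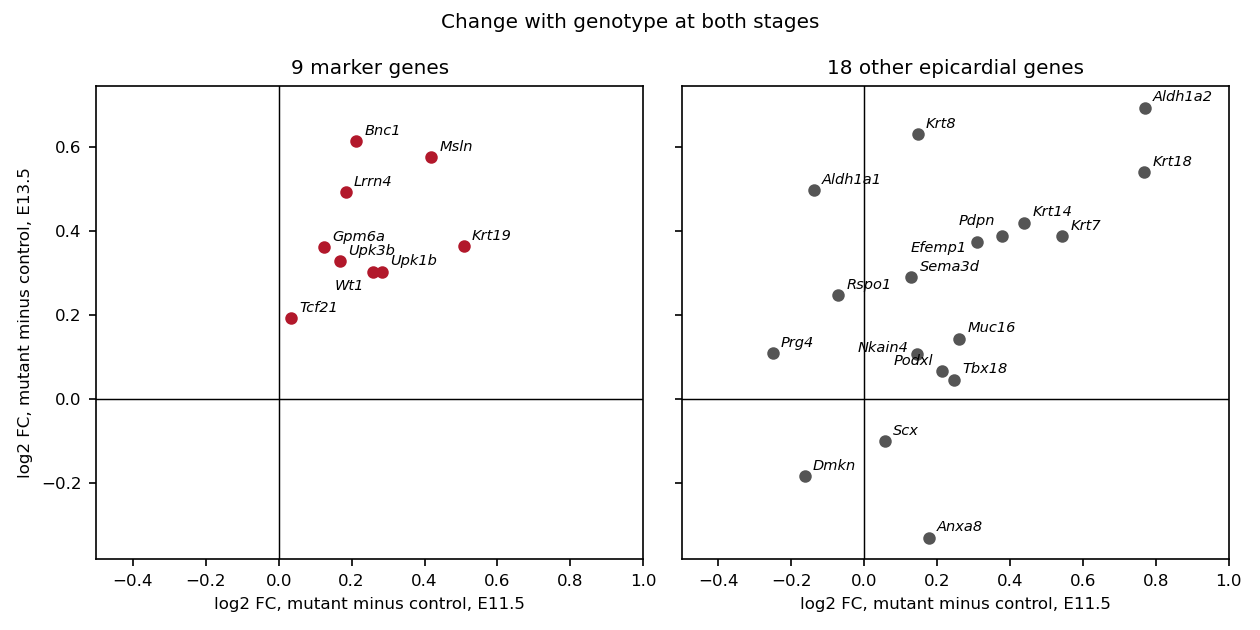
The log2 FC (mutant minus control) at E13.5 on the vertical and at E11.5 on the horizontal axis, for the 9 marker genes and for 18 other epicardial genes, from limma. All 9 markers lie in the upper right corner, and of the other genes *Aldh1a2* lies farthest along it, at 0.77 and 0.69.

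Between the stages, this list split. *Tbx18*, a T-box factor of the proepicardium and epicardium, was higher at E13.5 in mutant hearts (log2 FC 0.90, limma's adjusted p = 0.000652) and in control hearts (1.10, adjusted p = 0.00013), and *Dmkn*, an epidermal and epicardial secreted protein, was lower in mutant hearts (-0.95) and in control hearts (-0.92). *Rspo1*, a secreted enhancer of Wnt signals, was called higher in mutant hearts (0.54, limma's adjusted p = 0.0398). That call was lost under quantile normalisation (0.34, adjusted p = 0.204) and without mutant E11.5 heart 2, 3 or 4 or mutant E13.5 heart 1 or 3. *Anxa8*, a membrane-binding annexin, was called higher in control hearts (0.77, adjusted p = 0.00422), where its probe set was dim (mean 6.61 at E13.5 and 5.85 at E11.5). Neither gene was found to differ between the genotypes in its stage change: that difference (mutant minus control) was 0.32 for *Rspo1* (95% CI -0.28 to 0.92) and -0.51 for *Anxa8* (-1.07 to 0.05), each with an adjusted p of 1.00 in limma. Of this list 3 of 18 genes were called in each genotype, where 29.6% of all genes were called in mutant hearts and 28.8% in control hearts. Of the 6 uroplakin genes, 2 of which are markers, *Upk2* was lower at E13.5 in mutant hearts (-1.21) and in control hearts (-0.96), and *Upk3bl* in control hearts (-0.60), a call that quantile normalisation ended (-0.50).

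Genes of later steps of the epicardial programme were read from 2 further lists. Of 18 genes of attachment, delamination and transition to mesenchyme, none was called between the genotypes, with a median log2 FC of -0.10 at E13.5 and 0.03 at E11.5. At an unadjusted p under 0.05 in limma, 1 was lower and 0 higher in the mutant at E13.5. At E11.5, 3 were lower and 0 higher. Of all 19937 genes, 786 at E13.5 and 1862 at E11.5 passed that level in either direction. Between the stages *Itga4*, the integrin that holds the epicardium to the myocardium, was lower at E13.5 in mutant (-0.93) and control hearts (-0.89), *Pdgfrb*, a growth factor receptor of mural cell precursors, was higher in mutant (0.74) and control hearts (0.70), *Snai1*, a repressor of epithelial genes, was lower in mutant hearts (-0.76), and *Cdh2*, N-cadherin, was higher in control hearts (0.56). That is 3 of 18 genes called in each genotype, where 29.6% of all genes were called in mutant hearts and 28.8% in control hearts in either direction. After quantile normalisation the calls of *Cdh2* (0.37) and *Pdgfrb* (0.46) in control hearts ended, and after cyclic loess normalisation so did these (0.33 and 0.45) and that of *Pdgfrb* in mutant hearts (0.49). The stage change was not found to differ between the genotypes for *Snai1* (-0.29) or *Cdh2* (-0.11), with an adjusted p of 1.00 in limma for each. Of 12 genes of epicardium-derived mesenchyme and fibroblasts none was called between the genotypes, with a median log2 FC of 0.02 at E13.5 and -0.09 at E11.5. At an unadjusted p under 0.05 in limma, 1 was higher and 1 lower in the mutant at E13.5, and 1 was higher and 3 lower at E11.5. Between the stages, the same 5 of these 12 genes were called higher at E13.5 in each genotype: *Postn*, *Col1a2*, *Dcn*, *Lum* and *Tgfbi*, all genes of the extracellular matrix. Of all genes, 16.8% were called higher in mutant hearts and 16.5% in control hearts. The largest were *Lum* in mutant hearts (log2 FC 1.82) and *Dcn* in control hearts among those that kept their call after quantile normalisation (1.21). In control hearts the other 4 calls ended under that normalisation (*Lum* at 1.02 with an adjusted p of 0.113 in limma). The *Lum* call there (log2 FC 1.22, limma's adjusted p = 0.0424) ended in 14 of 26 alternatives. Among these were leaving out any 1 of the control E13.5 hearts, control E11.5 heart 1, 2 or 4, or mutant E13.5 heart 2, 3 or 4. In mutant hearts the call of *Col1a2* (0.61) ended under quantile normalisation (0.37, limma's adjusted p = 0.141). It also ended without mutant E11.5 heart 2 or 4 or mutant E13.5 heart 3.

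Markers of other tissues that a dissection could bring along were read from fixed lists. The mean of 6 liver genes was between 6.10 and 6.76 in mutant hearts and between 5.84 and 7.04 in control hearts at E13.5, that of 6 lung and foregut genes between 5.94 and 6.20 in mutant hearts and between 6.01 and 6.59 in control hearts, and that of 5 kidney and gonad genes between 6.20 and 6.48 in mutant hearts and between 6.33 and 6.53 in control hearts. In mutant E13.5 heart 3, the highest for the marker genes, these means were 6.47, 5.94 and 6.48, each below the highest control heart of that stage. Among the 4 mutant hearts of that stage, its kidney and gonad mean was the highest and its lung and foregut mean the lowest. In mutant E11.5 heart 1, the highest for 7 of 9 marker genes, the liver mean was 6.61, the highest of its stage (6.08 to 6.61 in mutant hearts and 6.16 to 6.26 in control hearts), as was the mean of 5 surface ectoderm genes at 6.98 (6.73 to 6.98 in mutant hearts and 6.55 to 6.83 in control hearts). Those of the lung and foregut list (6.29) and of the kidney and gonad list (6.55) were the lowest of the 4 mutant hearts there. Their part in the marker levels was not tested, and none of these 4 lists held a gene called between the genotypes at either stage. Mesothelium of the pericardium shares the markers themselves and was not told apart from epicardium.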

How the data were processed

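Single hearts were hybridised to 16 arrays. The authors normalised them with RMA in the affy package and named limma for differential expression, and the deposited table holds log2 values (34760 probe sets, no missing values, probe-level files not used). Versions, dates and batches are not given in the sources used here, so batches were not tested. Of the probe sets, 21640 name a single gene by the platform annotation, and for genes with several the brightest was used. All 9 genes were matched to RefSeq by Entrez ID.

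All 16 arrays were fitted in limma 3.58.1 (R 4.3.3) with 4 group means and 12 residual degrees of freedom. Benjamini-Hochberg adjustment ran over all probe sets of a comparison. The 9 genes and all lists were chosen with earlier results of these data known. Genes outside the 9 were named in the lists described gene by gene (other epicardial genes, uroplakins, attachment and transition, mesenchyme and fibroblasts): between the stages when called, and between the genotypes in the first of these lists as the 4 with the smallest p. Marker lists of other tissues are given by their means only, although some held genes called between the stages. Genes were also named as the 10 most like the mean of the 9. The fit was tested on simulated data. Alternatives were separate fits per stage, array weights, a robust prior with a trend, renormalisation by quantiles or by cyclic loess, median centring, leaving out dim probe sets (below percentile 40), a gene's median probe set, a replicate block, a covariate of Y-linked genes (the labels give no sex), no fold threshold, leaving out each heart, and leaving out 3 hearts. The replicate numbers were taken as names without pairing, since 7 same-numbered mutant and control pairs had correlations between -0.06 and 0.01. Plots used Python 3.11.15 and matplotlib 3.10.9.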

Additional observations from a re-analysis of the deposited data

Results flagged for a closer look

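In groups of 4 hearts, a heart was set apart when its gap to the nearest other heart exceeded Dixon's critical share of the group's range, and chance does so in about 1 of 20 groups (5%). Of the 36 groups of the 9 marker genes, 4 were so marked. *Krt19* was 11.18 in mutant E11.5 replicate 4, with the other mutant hearts between 9.22 and 9.54. *Lrrn4* was 10.53 in mutant E11.5 replicate 1, with the others between 10.13 and 10.15. *Tcf21* was 9.35 in control E13.5 replicate 1, with the others between 9.62 and 9.64. *Upk1b* was 10.68 in control E11.5 replicate 4, with the others between 10.13 and 10.22.

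Among 124 groups of the other named genes, 7 were marked. *Krt18* was 11.05 in mutant E11.5 replicate 4 (others 9.70 to 9.75) and 9.24 in mutant E13.5 replicate 2 (others 9.84 to 9.93). *Stk26* was 10.21 in mutant E11.5 replicate 1 (others 9.64 to 9.73). *Golm1* was 9.88 in control E13.5 replicate 5 (others 10.08 to 10.11), and in control E13.5 replicate 1 *Upk3bl* was 6.51 (others 6.12 to 6.19) and *Pdgfrb* 10.49 (others 10.33 to 10.35). *Itga4* was 9.98 in control E11.5 replicate 2 (others 9.38 to 9.42).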

How the results depend on the processing

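The counts of 0 called genes between the genotypes at either stage, and for the difference between stages, were 0 under every alternative run. The stage counts were 1 in each genotype and moved. In mutant hearts 2 genes were called after quantile normalisation, 2 after cyclic loess normalisation and 2 without the 3 hearts set apart, and between 1 and 2 without any 1 heart. In control hearts these counts were 3, 4 and 2, with 3 under the Y-linked covariate and between 1 and 2 without any 1 heart. The added calls were *Upk1b*, *Upk3b*, *Tcf21* and *Krt19* in control hearts and *Upk1b*, *Krt19* and *Bnc1* in mutant hearts. Over all genes, quantile normalisation gave 11.4% called higher between the stages in control hearts, against 16.5% on the deposited values.

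Of 38 log2 FC values of the 9 genes, 1006 recomputed values held 21 with the opposite sign and 16 that newly passed the threshold. Leaving out 1 heart gave -0.10 to 0.15 for *Tcf21* and -0.062 to 0.27 for *Gpm6a* between genotypes at E11.5, and -0.0099 to 0.50 for *Upk1b* at E13.5. It gave -0.29 to 0.0058 for *Wt1*, -0.26 to 0.026 for *Tcf21*, -0.051 to 0.37 for *Gpm6a* and -0.12 to 0.27 for *Lrrn4* between stages in mutant hearts, and -0.17 to 0.089 for *Gpm6a* and -0.0019 to 0.29 for *Bnc1* in control hearts. For the difference between stages *Krt19* ran from -0.34 to 0.32, and was 0.36 without the 3 hearts. *Tcf21* at E11.5 was -0.056 with the Y-linked covariate. Quantile and cyclic loess normalisation turned *Gpm6a* (-0.0585 and -0.072) and *Lrrn4* (-0.14 and -0.14) in mutant hearts and *Bnc1* in control hearts (-0.035 and -0.083). With a replicate block the counts of called genes were 0, 0, 1 and 1 as before, and *Gpm6a* was 0.13 between stages in control hearts. The causes were not tested. Of 865 values of other named genes, 44 lost their call and none changed sign. The number of 4 hearts a group limits what could be called.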
